A study of Mus musculus with 2 samples.

Results

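The levels of 8 interleukin subunit genes in RAW264.7 macrophages were compared between 1 array from wildtype cells and 1 array from cells labelled HuR-deficient. The 8 genes were Il27, Ebi3, Il12a, Il12b and Il23a, which encode subunits of the IL-12 family, together with Il10, Il6 and Il15. They were taken by gene symbol from the 22180 genes that the platform's table pairs with probe sets of 1 symbol, and all 8 were measured. The set was chosen by family with the measured differences between these arrays in view. RAW264.7 is a long-established macrophage line from mouse. HuR, the product of Elavl1, binds AU-rich and U-rich stretches of mRNA, which are common in cytokine transcripts, and protects many such mRNAs from decay. The wildtype cells and the HuR-deficient cells had both been transfected with poly(I:C) of high molecular weight, which mimics viral double-stranded RNA, by means of a lipofectamine reagent for 8 hours at a labelled 1 mg/ml. Both groups therefore share the stimulus, and no unstimulated culture was analysed here. The sample title calls the HuR-deficient cells HuR-KO (knockout). How they were made, and whether they are 1 clone, is not stated.

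The IL-12 family consists of secreted pairs. IL-12 joins the subunits p35 (Il12a) and p40 (Il12b), IL-23 joins p19 (Il23a) and p40, IL-27 joins p28 (Il27) and EBI3 (Ebi3), and IL-35 joins EBI3 and p35. Macrophages and dendritic cells make IL-12, IL-23 and IL-27 after sensing microbes or viral nucleic acid. A pair is assembled inside a cell that makes both of its subunits. IL-12 drives type 1 T helper cells, IL-23 sustains T cells that make IL-17, and IL-27 has both stimulating and restraining effects on T cells. IL-6 is an acute inflammatory cytokine, IL-10 restrains macrophage activation, and IL-15 supports natural killer and memory T cells.

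Promoter sequence was at hand for 4 of the 8 genes, from RefSeq on GRCm38.p6. The 250 bases upstream of the annotated start are shown for 3 of them, because Ebi3 is the partner subunit of Il27, Il12b is the subunit that IL-12 and IL-23 share, and Il6 is a classic target of NF-kappaB and C/EBP factors. Capitals mark matches, on either strand, to the motifs searched: NF-kappaB (searched by its consensus), GAAA and GAAA set 2 bases apart (an interferon-stimulated response element), GGAA and GAAA set 2 bases apart (an ETS-IRF composite), TGANTCA (AP-1), TTNNGNAAT (C/EBP), ACGTCA (the core of the cAMP response element) and TATAA.
Ebi3, chr17:55952373-55952622, plus strand: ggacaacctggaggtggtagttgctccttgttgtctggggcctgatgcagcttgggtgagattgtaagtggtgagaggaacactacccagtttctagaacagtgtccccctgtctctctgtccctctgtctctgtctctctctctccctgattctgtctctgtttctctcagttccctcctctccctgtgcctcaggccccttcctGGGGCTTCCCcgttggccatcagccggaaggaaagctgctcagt
Il12b, chr11:44399813-44400062, plus strand: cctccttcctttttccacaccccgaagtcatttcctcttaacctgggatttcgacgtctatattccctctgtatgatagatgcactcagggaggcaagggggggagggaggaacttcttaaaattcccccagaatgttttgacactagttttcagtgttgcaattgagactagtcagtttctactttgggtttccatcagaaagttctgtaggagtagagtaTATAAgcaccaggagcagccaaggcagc
Il6, chr5:30012864-30013113, plus strand: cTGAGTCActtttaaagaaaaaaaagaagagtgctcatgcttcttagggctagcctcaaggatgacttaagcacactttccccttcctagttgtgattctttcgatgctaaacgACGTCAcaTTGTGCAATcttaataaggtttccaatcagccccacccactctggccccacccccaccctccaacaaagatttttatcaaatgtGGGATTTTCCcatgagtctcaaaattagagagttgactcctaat

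The Ebi3 and Il6 windows each held 1 NF-kappaB match, GGGGCTTCCC in Ebi3 and GGGATTTTCC in Il6, both at positions -44 to -35 from the start. A match of this kind was present in 7.25% of 32851 upstream windows of the same length. The Il6 window also held an AP-1 match at -249 to -243 (6.75% of windows), a cAMP response element core at -136 to -131 (6.47%) and a C/EBP match at -128 to -120 (10.2%). Il12b had a TATAA match at -28 to -24 (22.8% of windows). Neither of the 2 windows of Il12a matched any of the motifs. The interferon-stimulated response element (2.98% of windows) and the ETS-IRF composite (2.3%) were not matched in the windows of Ebi3, Il12a, Il12b and Il6. For Il27, Il10, Il23a and Il15 no window was at hand, so their promoters were not searched. These are descriptions of the letters in the windows, not of binding.

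The signals are log2 values that the authors made with RMA, and every difference is the array labelled HuR-deficient minus the wildtype array. Each group had 1 array and no replicate. No test between the conditions could therefore be run, no error between replicates exists, and precision is limited by this number. A floor of 4.38, the median signal of all named genes, was used to set weak signals apart, and a gene passed when the higher of its signals reached it. As a view of scatter across genes, each member is set beside the robust SD of the difference among the 500 genes nearest in mean signal. That scatter is not an error between replicates. The genes were proposed with results of these arrays in view, so their differences are descriptions. In bulk RNA, fewer cells of a type and less RNA per cell cannot be told apart.

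Elavl1, the targeted gene, gave 7.68 on the wildtype array and 7.75 in the cells labelled HuR-deficient, so its probe set did not distinguish the arrays. The position of the probe set relative to the disruption is not stated, so it checks nothing, and the genotype is used only as the label gives it. Of 9 macrophage markers, 8 passed the floor. Wildtype signals were 12.34 for Lyz2, 12.32 for Fcgr1, 11.55 for Cd68, 8.91 for Cd14, 8.32 for Spi1, 6.67 for Csf1r and 4.86 for Itgam, with differences from -0.33 (Itgam) to 0.33 (Spi1). Mertk did not pass (2.78 against 3.50, difference 0.73). Adgre1, which encodes an adhesion receptor used as a macrophage antigen, gave 4.94 in wildtype and 6.51 in the cells labelled HuR-deficient, a difference of 1.57. Adgre1 and Mertk were thus among 4 macrophage markers that lay in the same direction as the cytokine genes. The other 5 were lower, and the median difference of all 9 was -0.06. No common shift of the macrophage markers is read from these values. Markers of other cells were weak: the floor was passed by 3 of 7 markers of dendritic cells, 3 of 8 of T and NK cells, 1 of 4 of B cells, 1 of 7 of neutrophils and mast cells, and 4 of 8 of fibroblasts, epithelium and endothelium. The summed signal of the dendritic cell markers, on the log2 scale, was 7.34 in wildtype and 7.31 in the cells labelled HuR-deficient. For the T and NK cell markers these sums were 6.998 and 6.992, for the B cell markers 6.21 and 6.23, for the neutrophil and mast cell markers 6.32 and 6.20, and for the fibroblast, epithelial and endothelial markers 7.49 and 7.15. RMA gives no zero, so none of these markers can be called absent. The part of these markers in the cytokine differences was not tested.

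All 8 genes had a higher signal in the cells labelled HuR-deficient, with differences from 0.25 to 1.49 and a median of 0.46. Over all 22180 genes, 49.2% had a difference above 0 and the median was 0. Il27 and Il10 were the 2 genes at least 2-fold higher, and no member was at least 2-fold lower. Among the 11905 genes that passed the floor, 0.882% lay 2-fold or more above wildtype and 1.11% 2-fold or more below. Of the 8 genes, 5 passed the floor (Il27, Ebi3, Il10, Il6 and Il15), and Il12a, Il12b and Il23a did not. Because the choice of the genes used this contrast, nothing is read from these counts.

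**Figure D1:**
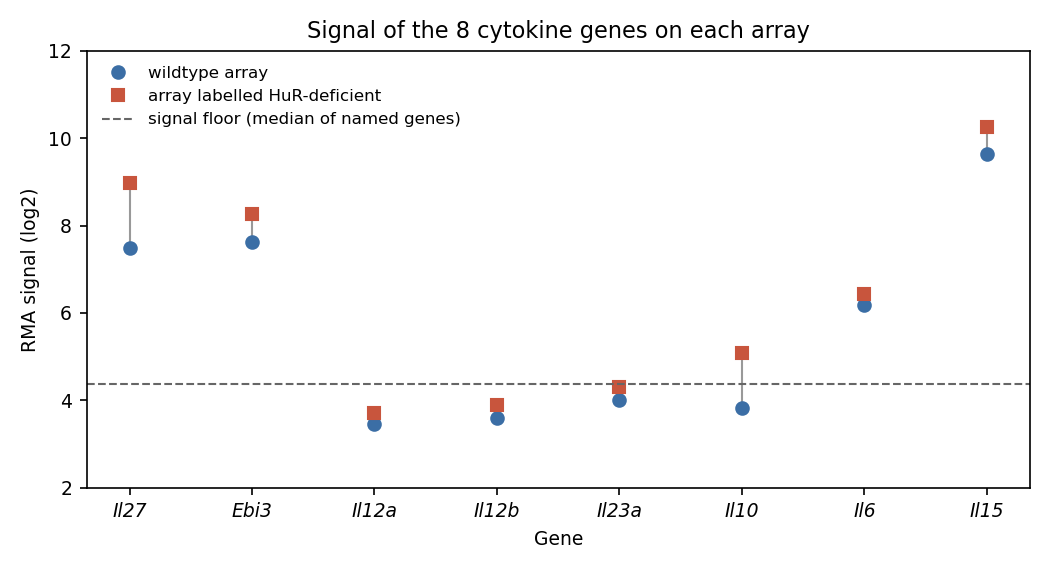
RMA signal (log2) of the 8 genes on the wildtype array (circles) and the array labelled HuR-deficient (squares), 1 array each. The dashed line is the floor of 4.38. Every square lies above its circle, the gap is widest for Il27 (1.49) and Il10 (1.25), and both signals of Il12a, Il12b and Il23a lie below the floor; heights of different genes come from different probes and are not comparable.

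Il27, which encodes the p28 subunit that is specific to IL-27, gave 7.48 on the wildtype array and 8.98 in the cells labelled HuR-deficient. Both signals lay well above the floor, and the difference of 1.49 is 2.81-fold. The robust SD of genes at this signal was 0.30. Of the 500 nearest genes, 0.4% had a difference at least as high and 1% differed by as much in either direction. Ebi3, the partner subunit, gave 7.63 and 8.26, a difference of 0.64 or 1.56-fold. Here 2.4% of the nearest genes had a difference at least as high, and 6.6% differed by as much in either direction. Ebi3 was the member with 2 probe sets. The weaker one gave 6.48 and 6.67, a difference of 0.19, so the size of the Ebi3 difference depended on the probe set while both were above 0. With the stronger Ebi3 probe set, the difference of Il27 exceeded that of Ebi3 by 0.86. These values come from different probe sets on 1 array per group, so no statement on the relative amounts of the subunits is read from them.

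The subunits of IL-12 and IL-23 were weak on both arrays. Il12a, which encodes p35, gave 3.45 in wildtype and 3.72 in the cells labelled HuR-deficient, a difference of 0.27. Il12b, which encodes the shared p40, gave 3.59 and 3.90, a difference of 0.31. Il23a, which encodes p19, gave 4.02 and 4.31, a difference of 0.29. None of these reached the floor on either array, and their differences were below the robust SD of genes at their signals (0.37, 0.32 and 0.30). Of the nearest genes, 27.2% had a difference at least as high as that of Il12a, 21.2% as that of Il12b and 20% as that of Il23a. In either direction these shares were 49.8%, 36% and 36.2%. Differences of this size were thus common among genes of like signal, and whether any of these mRNAs was present above background could not be shown. Within the pairs, Il12b and Il12a differed from each other by 0.04 in their differences and Il12b and Il23a by 0.02. Of the partners in IL-35, Ebi3 differed by more than Il12a with its stronger probe set (0.64) and by less with its weaker one (0.19), so their order was not settled.

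Il10 gave 3.83 on the wildtype array, below the floor, and 5.08 in the cells labelled HuR-deficient, above it. The difference of 1.25 is 2.38-fold, against a robust SD of 0.34. Of the nearest genes, 0.8% had a difference at least as high, and 0.8% differed by as much in either direction. Because Il10 passed the floor only on the array where it was higher, the size of its difference is uncertain: the wildtype value may be background. Il6 gave 6.18 and 6.43, above the floor on both arrays. Its difference of 0.25 was below the robust SD of 0.33. A difference at least as high was found in 19.8% of the nearest genes, and one as large in either direction in 42.8%. Il15 gave 9.63 and 10.25, a difference of 0.62 or 1.54-fold. Scatter was narrower at this high signal, with a robust SD of 0.21. A difference at least as high was found in 2.0% of the nearest genes, and one as large in either direction in 4.2%.

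**Figure D2:**
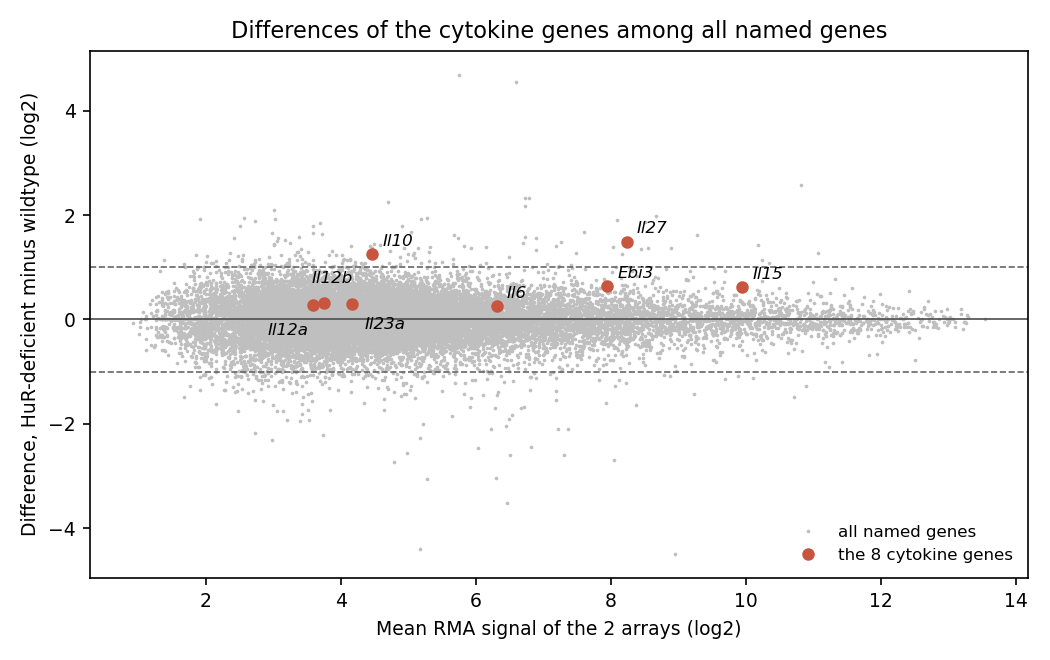
Difference (log2, array labelled HuR-deficient minus wildtype) against the mean signal of the 2 arrays for 22180 genes (grey) and the 8 cytokine genes (red, labelled); dashed lines mark 2-fold. Il27 and Il10 lie above the upper line, Ebi3 (0.64) and Il15 (0.62) near the upper edge of genes of like signal, and Il6, Il12a, Il12b and Il23a inside the cloud.

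In order of difference, as deposited and with the stronger Ebi3 probe set, the genes ran Il27, Il10, Ebi3, Il15, Il12b, Il23a, Il12a and Il6. With the Ebi3 probe sets averaged, Ebi3 (0.41) fell below Il15 (0.62). After a further quantile normalisation Il12a (0.25) rather than Il6 (0.27) was lowest, as it was after removal of a trend with signal (0.24 against 0.26). The step from Il10 to Ebi3, 0.61, was the one step between neighbours in this order that exceeded the larger of their robust SDs. The step from Il27 to Il10 was 0.24, that from Ebi3 to Il15 0.02, that from Il15 to Il12b 0.31 against 0.32, and the steps among the lowest 4 were at most 0.02. At 1.5-fold, 4 of the 5 genes that passed the floor were higher (Il27, Il10, Ebi3 and Il15), where 5.44% of all genes that passed were. Ebi3 was not among them with its 2 probe sets averaged (0.41). Il10 passed the floor only on the array where it was higher. Because the genes were chosen with this contrast in view, nothing is read from this count. Genes nearest in difference were sought among those that passed the floor, with predicted, non-coding and olfactory receptor symbols left out. By the absolute gap over 2 arrays, Spink5 (1.49), Ifit1bl1 (1.47) and Tcl1b2 (1.45) were nearest to Il27. Nearest to Il10 were Eno4 (1.26), Ccrl2 (1.26) and Zfp345 (1.24). Tcl1b2 (3.77), Eno4 (4.37) and Zfp345 (3.39) lay below the floor in wildtype, so they passed only on the array where they were higher. With 2 arrays, likeness in difference is only an equal step between the arrays.

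The receptors for these cytokines showed no common direction: of 10 measured, 4 were higher and 6 lower, with a median difference of -0.23. Limited to the 6 that passed the floor, the median was 0.22. With both arrays required at the floor it was -0.15, so its sign depended on how weak genes were filtered. Il15ra, the receptor chain that presents IL-15 on the surface of the cell that makes it, gave 5.89 in wildtype and 7.09 in the cells labelled HuR-deficient. Its difference of 1.20 was 2.31-fold and lay in the same direction as that of Il15, and 1.2% of the nearest genes differed by as much in either direction. It was the receptor gene past 2-fold, 1 of 6 that passed. Il10ra, the ligand-binding chain of the IL-10 receptor, gave 3.90, below the floor, and 4.65, a difference of 0.75. Il10rb, its second chain, differed by -0.50 (6.78 against 6.28), and Il27ra, the specific chain of the IL-27 receptor, by -0.44 (4.99 against 4.55). Of the nearest genes, 13.6% differed by as much as Il10rb in either direction, 17.4% by as much as Il27ra and 3.8% by as much as Il10ra. The ligand genes Il10 and Il27 and the receptor gene Il10ra were thus higher, and Il10rb and Il27ra lower within 2-fold. No pattern of ligands against receptors is read from these values.

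Of 9 measured kinases and STAT factors that carry the signals of these receptors, 7 were higher and 2 lower, with a median of 0.24 and none of the 8 that passed the floor at 2-fold. Tyk2, a kinase that serves the IL-12, IL-23 and IL-10 receptors, gave 5.05 and 5.71, a difference of 0.66, and Jak2, the partner kinase of TYK2 at the IL-12 and IL-23 receptors, gave 6.60 and 7.19, a difference of 0.59. Stat5a and Stat5b, which act downstream of IL-15, differed by -0.22 and -0.04. Among 10 feedback and STAT3-induced genes, each with its strongest probe set, 7 were higher and 3 lower. The median was 0.13, and none of the 10, all of which passed, was at 2-fold. Bcl3, an atypical inhibitor of NF-kappaB induced by IL-10, differed by 0.46 and Cish, a feedback inhibitor of STAT5, by 0.26. A second, weaker probe set of Cish gave 0.13 (3.06 against 3.19). Of the nearest genes, 18.4% differed by as much as Bcl3 in either direction and 45% by as much as Cish. Etv3, a repressor induced by IL-10, differed by -0.42 and Socs3, the feedback inhibitor of IL-6 receptor signalling, by -0.38 (6.68 against 6.30). A second, weaker probe set of Socs3 gave -0.02 (4.56 against 4.53). Socs2 (-0.01) and Pim1 (0.11) also had a weaker probe set, below the floor on both arrays. These gave -1.34 for Socs2 (4.09 against 2.75), past 2-fold, and 0.62 for Pim1 (2.61 against 3.22). Differences as large as that of Etv3 were found in 21.4% of its nearest genes, and as large as -0.38 in 26% of those of Socs3.

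Among 23 measured transcription factors that act on these cytokine promoters, 12 were higher and 10 lower, with a median of 0.06 and none of the 22 that passed at 2-fold. Irf8, an interferon regulatory factor known for its part in Il12b and Il27 transcription, had the largest difference of the list, 0.98 (9.03 against 10.02), while its second probe set gave 0.19 (5.50 against 5.69). Batf2, an AP-1 family factor induced by interferon, differed by 0.67. Cebpb, the C/EBP factor known for Il6 induction, gave 7.88 in wildtype and 7.20 in the cells labelled HuR-deficient, a difference of -0.68, and Creb1 differed by -0.51.

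Among 15 post-transcriptional regulators of cytokine mRNAs, Elavl1 included, 9 were higher and 6 lower, with a median of 0.07. Arid5a, an RNA-binding protein known to stabilise Il6 mRNA, was the member past 2-fold of the 13 that passed (3.69 against 4.73, difference 1.04), but its signal in wildtype did not reach the floor. Zfp36l1, which promotes the decay of AU-rich mRNAs, gave 5.25 and 5.92 with the stronger of its 2 probe sets, a difference of 0.68. Ybx1 differed by -0.55, and Rc3h1, which encodes Roquin-1, by -0.41. Of 15 related ligands of the IL-6, IL-10 and common gamma chain families, 10 were higher and 4 lower, with a median of 0.14, and none of the 7 that passed the floor was past 2-fold. Il19 (0.43) and Il11 (0.32) lay highest among these 7, and Clcf1 (-0.37) and Il7 (-0.17) lowest. These list medians stand beside a median of 0 over all genes, and no list is called apart from them.

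**Figure D3:**
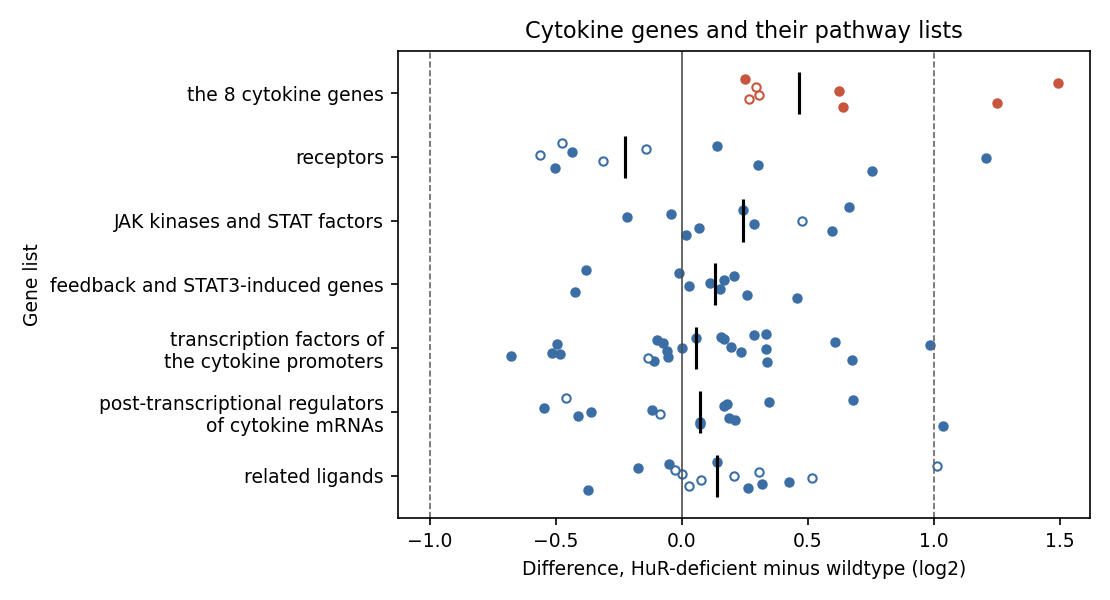
Differences (log2, array labelled HuR-deficient minus wildtype) of the 8 cytokine genes (red) and of 6 pathway lists (blue), 1 point per gene; filled points passed the floor, open points did not, black bars are medians over all points of a row and dashed lines mark 2-fold. The 8 cytokine genes lie above 0, with a median of 0.46, while the receptors have a median of -0.23 and the other lists medians from 0.06 to 0.24.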

How the data were processed

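Total RNA of 1 wildtype and 1 HuR-deficient RAW264.7 culture was biotinylated and put on Affymetrix arrays, per the labels. The authors deposited log2 signals, 1 column per array. Per the submitters' processing notes, RMA was used. That the scale is log2 follows from the values (0.434 to 13.77). The version of RMA, the annotation and the build are not stated. RMA forces the arrays to 1 distribution and compresses weak and very strong signals. Median signals were 4.08 (wildtype) and 4.10 over 41345 probe sets.

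Of these probe sets, 23521 had 1 gene symbol and were used. For the 1082 genes with several, the one with the highest mean was taken. No probe set with several symbols held a member. Genes, lists and alternatives were processed on the whole table. Members and lists were chosen with earlier results of these data known. Named are all members, Elavl1, the macrophage markers and the 3 genes nearest in difference to each member past 2-fold. Those nearest genes were drawn from genes that passed the floor, with predicted, non-coding and olfactory receptor symbols left out. Of each of the 6 pathway lists, the members past 2-fold and the 2 highest and 2 lowest that passed the floor are named. Genes of the lists that had no probe set of 1 symbol were not analysed here. The alternatives were centring, a further quantile normalisation, removal of a lowess trend (span 0.3), averaging of probe sets, other floors and other fold thresholds. The scatter, counting at 2-fold, trend removal and quantile steps were run on simulated data with planted differences well past 2-fold. Those runs do not test values near a threshold, the floor or the choice of probe set. Values were computed in Python 3.11.15 with pandas 2.3.3 and numpy 2.4.6, trends with statsmodels 0.14.6, and plots were drawn in matplotlib 3.10.9.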

Additional observations from a re-analysis of the deposited data

How the results depend on the processing

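The 8 differences were recomputed under 4 alternatives, and all 32 values stayed above 0 and moved from the deposited value by less than the robust SD of genes of like signal. Il27 ranged from 1.493 to 1.505, Il10 from 1.22 to 1.25, Il15 from 0.62 to 0.64 and Il6 from 0.25 to 0.27. Ebi3 gave 0.41 with its 2 probe sets averaged. Averaging cannot move the 7 genes with 1 probe set, and centring moved nothing because the median difference was 0. Without a filter, 185 of the 22180 genes were at least 2-fold higher and 232 lower, and 2 of the 8 members were higher. With both arrays required at the floor, these counts were 55 and 76, and 1 member (Il27) was left of the 4 that met this floor. The total of genes that met it was not counted, so no share stands beside these counts. Of the 11905 genes that passed the floor, 648 (5.44%) were at least 1.5-fold higher and 633 lower. Of the 5 members that passed, 4 were higher at 1.5-fold (Ebi3 among them only with its stronger probe set). At 3-fold, 22 of the 11905 genes were higher and 33 lower, with 0 members. These are counts only, since no test was run, and nothing is read from the member counts. The receptor median moved from -0.23 to 0.22 when limited to genes that passed the floor, a choice made after seeing the data. Of 70 list medians under alternatives, 62 moved by less than 0.1. No paired analysis was possible because each group has 1 array. With 1 array per group, differences between cultures, labelling or hybridisation cannot be told apart from genotype.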

Other observations

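The chromosomal neighbours of the 8 genes were looked at after their values were seen, as the 2 measured protein-coding genes on either side in the gene order of GRCm38.p6. Il10 lies beside Il19 and Il20, related cytokine genes, which had differences of 0.43 and 0.52 in the same direction as Il10 (1.25), Il20 with signals below the floor on both arrays (3.31 and 3.83). On its other side Mapkapk2, a kinase of the p38 pathway, differed by 0.10 and Dyrk3 by 0.48. Il27 lies between Apobr (-0.07) and Nupr1, a stress-induced chromatin protein gene (8.27 against 8.96, difference 0.69). Of all 32 neighbours, 18 were higher and 12 lower, with a median of 0.03, where 49.2% of all genes were higher. The 1 neighbour past 2-fold among the 24 that passed the floor was Apof, near Il23a (4.45 against 5.68, difference 1.24). Among all genes that passed, 0.882% were 2-fold or more higher and 1.11% 2-fold or more lower. A regional effect was not tested.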
